A study of Mus musculus with 4 samples.

Results

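The 9 genes described here encode the enzymes that write, copy and oxidise DNA methylation and the catalytic subunits of the Polycomb complex PRC2. They were taken by symbol from a table of 24341 genes and are Dnmt1, Uhrf1, Dnmt3a, Dnmt3b, Tet1, Tet2, Tet3, Ezh1 and Ezh2. All 9 were in the table. Dnmt1, Uhrf1 and Ezh2, whose products act with DNA replication, were set against the other 6. Expression was measured by RNA sequencing of polyadenylated RNA from CAD cells, the mouse neuronal line Cath.-a-differentiated, which makes catecholamines and grows processes when serum is withdrawn. Cultures of all groups were held in serum-free medium for 5 days. One group then received 20 µM of an ACSS2 inhibitor for 24 h (ACSS2i), and the other the solvent DMSO, with 2 libraries in each group. All libraries came from a single cell line. Separate cultures are not stated in the labels, so the spread behind each p-value is that of these libraries and may be only technical. The comparison asked how transcripts of the neuron-like cells differ when ACSS2, which makes acetyl-CoA from acetate, is inhibited.

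Methylation of cytosine in CpG pairs is copied at each round of DNA replication. UHRF1 binds DNA that is methylated on the old strand only and brings DNMT1, which methylates the new strand. DNMT3A and DNMT3B methylate DNA that carried no mark, and the TET enzymes oxidise methylcytosine, which starts its removal. EZH2 and EZH1 are alternative catalytic subunits of PRC2, which methylates histone H3 at lysine K27 and keeps developmental genes silent. EZH2 is typical of dividing cells, whereas EZH1, DNMT3A, TET2 and TET3 are well expressed in cells that no longer divide, neurons among them.

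Values are FPKM, in which fragment counts are divided by transcript length and by library size, so that levels of different genes can be set side by side. The libraries differed in depth, at a nominal 7.70 and 9.77 M reads in ACSS2i replicates 1 and 2 and 11.4 and 3.32 M reads in DMSO replicates 1 and 2. Of 12 markers of catecholaminergic neurons, 10 exceeded 1 FPKM in every library. The exceptions were Dbh, the enzyme that makes noradrenaline, at 0.226 and 0.624 FPKM in ACSS2i and 0.344 and 0.524 FPKM in DMSO, and Ddc, which was at 0.0671 FPKM in ACSS2i replicate 1. Of 25 markers of astrocytes, oligodendrocytes, microglia and leukocytes, fibroblasts and endothelium, 21 were under 1 FPKM in every library and the highest value was 2.92 FPKM. Acss2 itself was at 12.8 and 26.6 FPKM in ACSS2i and 11.7 and 10.0 FPKM in DMSO. An enzyme inhibitor is not directed at the transcript, so this level does not check the labels.

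The letters at the starts of these genes were compared between the sets. The windows ran from 250 bases before to 50 bases after each annotated transcription start (RefSeq, GRCm38.p6), and all 9 genes matched by symbol. They were searched on both strands for the motif of E2F, the family of factors that switches on genes of S phase, in its forms TTTCCCGC, TTTCGCGC, TTTGCCGC and TTTGGCGC. A form was found 4 times in the 6 windows of Dnmt1, Uhrf1 and Ezh2, in at least 1 window of each gene, and 0 times in the 8 windows of the other 6 genes. The principal transcripts of Tet1 and Tet3 in GENCODE M21 begin at 62899118 and 83456392, outside the windows of these genes at the starts 62887324 and 83441678, so their principal starts were not searched. Windows 1 and 2 of Dnmt3a, at 3806730-3807029 and 3806910-3807209 on chromosome 12, overlap, so the 8 windows are not 8 separate stretches. Of all 32851 windows of the genome's genes 2.26% held such a form, as did 2.60% of the 27025 genes. Among the 1061 genes with 3 or more windows the share was 4.05%. The 4 stretches of 30 bases are shown because they mark what the replication-coupled genes share in these windows. Each is printed 5′ to 3′ on the gene's strand with the matching letters in capitals, and the letters GCGCGAAA are TTTCGCGC read on the opposite strand.
Dnmt1, chr9:20952824-20952853, minus strand: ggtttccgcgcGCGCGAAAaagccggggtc
Dnmt1, chr9:20952574-20952603, minus strand: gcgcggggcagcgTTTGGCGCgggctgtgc
Uhrf1, chr17:56304117-56304146, plus strand: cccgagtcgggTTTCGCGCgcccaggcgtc
Ezh2, chr6:47595009-47595038, minus strand: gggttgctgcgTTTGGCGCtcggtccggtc
The match in Ezh2 began at position 4 from the annotated start. Both matches in Dnmt1 lay by the same annotated start, at positions -219 and 34 from it, in untranslated exon sequence of the GENCODE M21 models. That in Uhrf1 lay at position -185 from the second annotated start, in an intron of transcripts that begin further upstream. The window at the principal start of Dnmt1, and that nearest the principal start of Uhrf1, held no match. A match describes letters and not a bound site.

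For Uhrf1, the member with the largest log2 fold change, and for Ezh1, the paralog of Ezh2 without a match, the window up to 20 bases past the start is printed whole. They let a start with a match be read beside one without.
Uhrf1, second start, chr17:56304063-56304332, plus strand: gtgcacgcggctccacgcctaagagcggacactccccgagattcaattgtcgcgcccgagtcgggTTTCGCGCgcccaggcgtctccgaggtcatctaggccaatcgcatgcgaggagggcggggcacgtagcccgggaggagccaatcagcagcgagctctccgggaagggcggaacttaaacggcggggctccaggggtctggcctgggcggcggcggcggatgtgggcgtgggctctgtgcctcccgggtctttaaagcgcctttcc
Ezh1, chr11:101226444-101226713, minus strand: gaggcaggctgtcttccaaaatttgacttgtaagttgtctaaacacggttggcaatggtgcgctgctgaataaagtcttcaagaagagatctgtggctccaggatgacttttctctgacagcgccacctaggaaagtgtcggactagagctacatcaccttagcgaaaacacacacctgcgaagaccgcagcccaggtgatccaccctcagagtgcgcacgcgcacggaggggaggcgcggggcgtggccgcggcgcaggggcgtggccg
The full Uhrf1 window held 33 CpG pairs with 68.3% G and C, and the Ezh1 window 23 CpG pairs with 59.3%. The pentamer CCAAT on either strand was in 5 of the 6 windows of the replication-coupled genes and in 1 of the 8 others, against 37.4% of all windows. The cell cycle element CHR, as TTTGAA or TTCGAA, was in 1 of the 6 and 1 of the 8, against 19.2% of all windows.

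Of the 9 genes, 8 passed the filter of a mean of at least 1 FPKM and were tested among 11486 genes. None of the 8 passed limma's test with Benjamini-Hochberg adjustment over all genes tested (0 at adjusted p under 0.05, where 0.0261% of all genes passed, 0.0174% as higher and 0.00871% as lower in ACSS2i). At an unadjusted p under 0.05 there was 1, Ezh2, against 6.96% of all genes tested, and 3.29% in the higher direction. The smallest adjusted p among the members was 0.718. The values below are therefore levels and estimated differences, none of which was separated from the spread between libraries.

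Among the replication-coupled genes, all 3 had positive log2 fold changes on the log2(FPKM + 1) scale, with a median of 0.81, against 0.02 over all genes tested. Of all 11486 genes tested 5996 had a positive log2 fold change and 5490 a negative one. The libraries of both groups were far apart, and replicate 2 was the higher of each pair for all 3 genes. The summed FPKM of all genes was 558575 and 675716 in ACSS2i and 590675 and 590248 in DMSO. With libraries scaled to equal sums the log2 fold changes of Dnmt1, Uhrf1 and Ezh2 were 0.40, 0.93 and 0.77. The part of the sums in the gaps between libraries was not tested. Uhrf1, on chromosome 17, 56303321 to 56323486 on the plus strand of mm10, was at 6.29 and 13.2 FPKM in ACSS2i and 2.80 and 6.52 FPKM in DMSO. The groups overlapped, since DMSO replicate 2 lay above ACSS2i replicate 1. The log2 fold change was 0.93 ± 0.46 (SE; unadjusted p = 0.0892, limma), and the libraries within a group were 0.97 apart in ACSS2i and 0.98 apart in DMSO on the same log2 scale. Without ACSS2i replicate 2 or DMSO replicate 1 the log2 fold change was 0.45 or 0.44, and without ACSS2i replicate 1 or DMSO replicate 2 it was 1.41 or 1.42. These values rested on a nominal 173 and 464 reads in ACSS2i and 115 and 78 reads in DMSO.

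Dnmt1, the maintenance methyltransferase (chromosome 9, 20907209 to 20959888, minus strand), was at 18.4 and 31.5 FPKM in ACSS2i and 14.1 and 21.6 FPKM in DMSO. Here too DMSO replicate 2 was above ACSS2i replicate 1. The log2 fold change of 0.44 ± 0.35 (SE) was smaller than the gap between libraries of a group, 0.75 in ACSS2i and 0.58 in DMSO. Without ACSS2i replicate 2 or DMSO replicate 1 it was 0.071 or 0.15, and without ACSS2i replicate 1 or DMSO replicate 2 it was 0.82 or 0.74.

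Ezh2 (chromosome 6, 47530139 to 47595341, minus strand) was the member with the smallest unadjusted p. It was at 24.0 and 41.0 FPKM in ACSS2i and 14.9 and 20.5 FPKM in DMSO, so that both ACSS2i libraries lay above both DMSO libraries. Such a separation in the higher direction was seen in 19.0% of all genes tested, and in 1 of these 3 genes. The log2 fold change was 0.81 ± 0.33 (SE; unadjusted p = 0.0496, adjusted p = 0.718, limma), with gaps of 0.75 between the ACSS2i libraries and 0.44 between the DMSO libraries. It was 0.44 without ACSS2i replicate 2 and 1.19 without ACSS2i replicate 1. Of all genes tested 3.20% had a larger log2 fold change than Ezh2, 2.59% a larger one than Uhrf1 and 10.6% a larger one than Dnmt1.

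**Figure D1:**
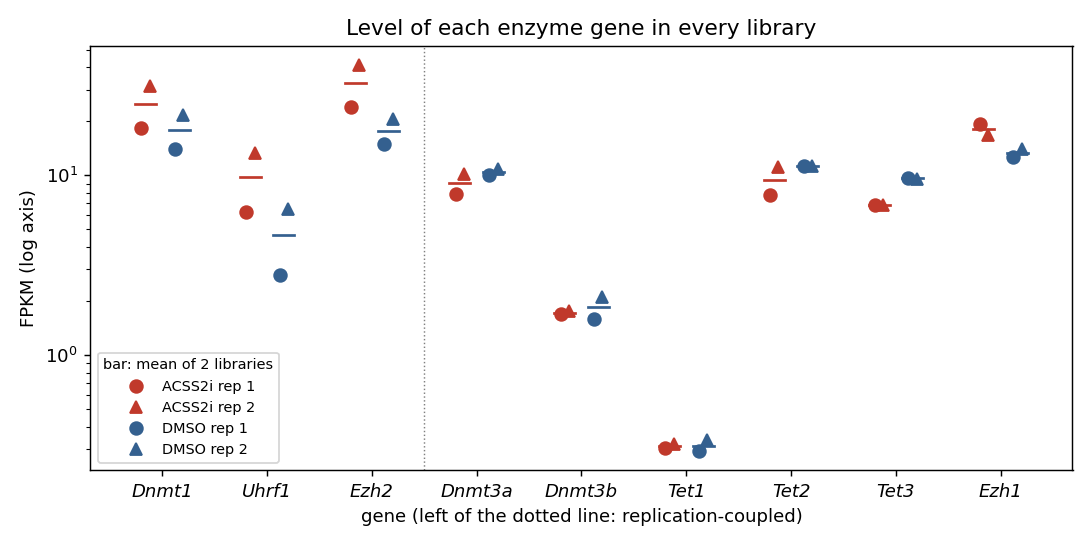
FPKM (log axis) of the 9 genes in each library, with ACSS2i in red and DMSO in blue, circles for replicate 1, triangles for replicate 2 and bars for the mean of 2 libraries. Uhrf1 in DMSO replicate 2 (6.52 FPKM) lies above ACSS2i replicate 1 (6.29 FPKM), whereas the Tet3 groups, at 6.88 and 6.88 against 9.72 and 9.53 FPKM, stand apart.

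Of the other 6 genes, 5 were tested, and 4 of the 5 had negative log2 fold changes, with a median of -0.20. The de novo methyltransferase Dnmt3a (chromosome 12, 3806007 to 3914443, plus strand) was at 7.88 and 10.2 FPKM in ACSS2i and 10.1 and 10.8 FPKM in DMSO. The groups overlapped and the log2 fold change was -0.20 ± 0.24 (SE). It was -0.038 without ACSS2i replicate 1 and -0.37 without ACSS2i replicate 2. Dnmt3a shares exon sequence with the antisense gene Dnmt3aos. Whether counting used the strand is not given in the sources used here, so reads of the pair may not be separated. The same limit holds for Ezh2 with Gm26625 and for Tet2 with Gm42567, opposite-strand genes that had no values here.

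Dnmt3b (chromosome 2, 153649450 to 153687730, plus strand), the de novo enzyme of early embryonic cells, was low, at 1.69 and 1.76 FPKM in ACSS2i and 1.59 and 2.10 FPKM in DMSO. These levels stood for a nominal 56 and 74 reads in ACSS2i and 78 and 30 reads in DMSO. The ACSS2i libraries lay between the DMSO libraries, and the log2 fold change was -0.058 ± 0.29 (SE).

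The methylcytosine oxidases held a pair at like levels, Tet2 and Tet3, and Tet1, which was scarce. Tet3 (chromosome 6, 83362373 to 83459084, minus strand) was at 6.88 and 6.88 FPKM in ACSS2i and 9.72 and 9.53 FPKM in DMSO. It was the member whose libraries lay closest together relative to the difference, with gaps of 0.0002 in ACSS2i and 0.03 in DMSO on the log2 scale and a log2 fold change of -0.43. Limma's SE for it was 0.22, since the test takes most of its spread from genes of like level, and the unadjusted p was 0.0975. Of all genes tested 87.7% had a larger log2 fold change.

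Tet2 (chromosome 3, 133463679 to 133545139, minus strand) was at 7.73 and 11.15 FPKM in ACSS2i and 11.34 and 11.27 FPKM in DMSO. Its groups did not overlap, but by a margin that ACSS2i replicate 2 all but closed. The log2 fold change was -0.26 ± 0.26 (SE), and it was -0.018 without ACSS2i replicate 1 and -0.49 without ACSS2i replicate 2.

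Tet1 (chromosome 10, 62804570 to 62908996, minus strand), the TET enzyme of embryonic stem cells, was at 0.305 and 0.320 FPKM in ACSS2i and 0.293 and 0.335 FPKM in DMSO, below the filter. The values correspond to a nominal 34 and 45 reads in ACSS2i and 48 and 16 reads in DMSO, and the groups overlapped. Tet1 was about at the middle of the table, with 52.1% of all genes at a higher mean.

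Ezh1 (chromosome 11, 101191115 to 101226463, minus strand) went against the other 4 tested genes of its set. It was at 19.2 and 16.8 FPKM in ACSS2i and 12.7 and 14.0 FPKM in DMSO, with both ACSS2i libraries above both DMSO libraries. The log2 fold change was 0.40 ± 0.22 (SE; unadjusted p = 0.122, limma), close to the 0.44 of Dnmt1 and with smaller gaps within the groups, 0.19 in ACSS2i and 0.13 in DMSO. Thus the split into replication-coupled genes and others did not coincide with the sign of the difference. Over the 8 tested members the groups did not overlap in 4, 2 higher (Ezh2 and Ezh1) and 2 lower (Tet3 and Tet2), where 37.3% of all genes tested did not overlap, 19.0% higher and 18.3% lower.

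**Figure D2:**
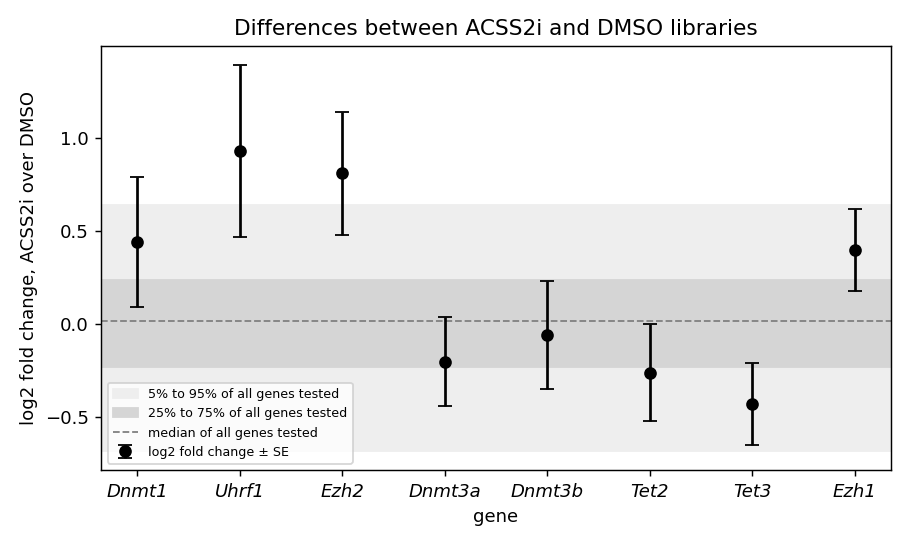
Log2 fold change of ACSS2i over DMSO on the log2(FPKM + 1) scale with limma's SE for the 8 members tested, over grey bands for the middle shares of all genes tested and a dashed line at their median of 0.02. Uhrf1 (0.93) and Ezh2 (0.81) lie above the 95% quantile of all genes, 0.64, and Tet3 (-0.43) lies inside the quantile at 5%, -0.68.

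Set against each other, the replication-coupled genes had a median log2 fold change 1.01 above that of the 5 other tested genes. No p is attached to this gap, because the members were picked with results of these data known. Leaving out single libraries gave gaps from 0.69 to 1.22. The summed level of Dnmt1, Uhrf1 and Ezh2 was 48.6 and 85.7 FPKM in ACSS2i and 31.7 and 48.6 FPKM in DMSO. ACSS2i replicate 1 and DMSO replicate 2 therefore held the same summed level. The other tested members summed to 43.4 and 46.7 FPKM in ACSS2i and 45.5 and 47.7 FPKM in DMSO, a much narrower range over the 4 libraries. This sum joins opposite differences and does not show that each gene was level. Ezh1 averaged 18.0 FPKM in ACSS2i and 13.4 FPKM in DMSO, whereas the other 4 genes were lower in ACSS2i. Tet3, for one, averaged 6.88 FPKM in ACSS2i and 9.63 FPKM in DMSO.

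The genes of DNA replication and mitosis, in lists chosen with earlier results of these data known, separated the groups by library. Their counts are therefore descriptions, and the share of all genes beside them is no test. Of 28 replication genes 27 were higher in both ACSS2i libraries than in both DMSO libraries, where 19.0% of all genes tested were. The median log2 fold change of the 28 was 1.27. It was 0.86 with a pseudocount of 5 FPKM, 0.98 without ACSS2i replicate 2 and 1.52 without ACSS2i replicate 1. The exception, named after its values were seen, was the replisome gene Gins3, at 4.05 and 1.97 FPKM in ACSS2i and 2.41 and 2.10 FPKM in DMSO. All 12 mitosis genes were higher in both ACSS2i libraries, with a median of 2.13, which was 1.10 with a pseudocount of 5 FPKM and 3.44 with 0.1 FPKM. Mki67, the marker Ki-67 of cycling cells, was at 22.2 and 24.9 FPKM in ACSS2i and 1.18 and 4.13 FPKM in DMSO. Of these 40 genes, 0 passed limma's test over all genes, with adjusted p of 0.259 or more, and 39 had an unadjusted p under 0.05. In bulk RNA a larger share of cycling cells and more transcript per cell cannot be told apart. The part of cell cycling in the levels of Dnmt1, Uhrf1 and Ezh2 was not tested.

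Centred on the mean of the 4 libraries, the replication genes had medians of 0.41 and 0.87 in ACSS2i and -0.75 and -0.39 in DMSO. The replication-coupled members had medians of -0.02 and 0.78 in ACSS2i and -0.62 and 0.03 in DMSO. Subtracting the median of the replication genes in each library put Dnmt1 at -0.56 and -0.28 in ACSS2i and 0.23 and 0.46 in DMSO, a difference of -0.77. Ezh2 stood at -0.37 and -0.09 in ACSS2i and 0.12 and 0.21 in DMSO on this relative scale, a difference of -0.40. Uhrf1 overlapped on it, at -0.43 and 0.07 in ACSS2i and -0.21 and 0.42 in DMSO. All 8 tested members had negative differences on this scale, Ezh1 at -0.81, Dnmt3a at -1.41 and Tet3 at -1.64 among them. A gene whose log2 fold change is below the median of the subtracted genes comes out negative by construction, and no test was run on these relative values.

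**Figure D3:**
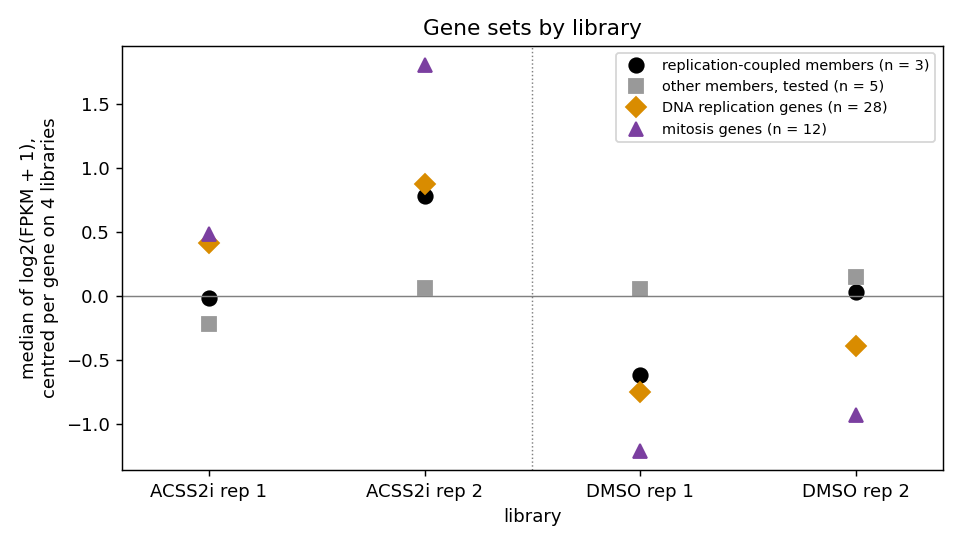
Median of log2(FPKM + 1), centred per gene on the 4 libraries, for the replication-coupled members, the other tested members, 28 DNA replication genes and 12 mitosis genes in each library. The mitosis genes (0.48 and 1.80 in ACSS2i, -1.21 and -0.93 in DMSO) and the replication genes separate the groups, whereas the replication-coupled members are at -0.02 in ACSS2i replicate 1 and 0.03 in DMSO replicate 2.

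By mean FPKM over the 4 libraries the order was Ezh2 (25.1), Dnmt1 (21.4), Ezh1 (15.7), Tet2 (10.4), Dnmt3a (9.74), Tet3 (8.25), Uhrf1 (7.21), Dnmt3b (1.79) and Tet1 (0.313). The ranges of Ezh2, Dnmt1 and Ezh1 overlapped each next one in this order, and so did those of Tet2, Dnmt3a, Tet3 and Uhrf1. Ezh1 in every library was above Tet2 in any, Uhrf1 above Dnmt3b and Dnmt3b above Tet1. Uhrf1 moved most in rank, from the seventh place in 3 libraries to the fourth in ACSS2i replicate 2.

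Dnmt1 and Ezh2 were the largest part of their families in every library. Dnmt1 made up 65.7% and 72.5% of the summed FPKM of the 3 DNA methyltransferases in ACSS2i and 54.6% and 62.5% in DMSO. The ratio of Dnmt1 to Dnmt3a was 2.33 and 3.10 in ACSS2i and 1.39 and 1.99 in DMSO. The mean log2 ratio, with 1 FPKM added to each level, was 0.65 higher in ACSS2i (two-sided exact permutation test, p = 0.333, the smallest that 2 against 2 libraries can give). The groups did not overlap for this ratio, unlike for Dnmt1 alone, and the difference was 0.40 without DMSO replicate 1.

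Ezh2 made up 55.5% and 70.9% of the summed Ezh1 and Ezh2 level in ACSS2i and 53.9% and 59.4% in DMSO. The ratio of Ezh2 to Ezh1 was 1.25 and 2.44 in ACSS2i and 1.17 and 1.46 in DMSO, so the groups overlapped. The log2 ratio differed by 0.41 (two-sided exact permutation test, p = 0.667), and the difference was -0.058 when ACSS2i replicate 2 was left out, 0.88 when ACSS2i replicate 1 was and 0.25 when DMSO replicate 1 was. Both paralogs were higher in both ACSS2i libraries, and their sum was 43.2 and 57.8 FPKM in ACSS2i against 27.6 and 34.5 FPKM in DMSO. Among the TET genes Tet2 made up 51.8% and 60.8% in ACSS2i and 53.1% and 53.3% in DMSO, and Tet1 at most 2.04%. The summed TET level was 14.9 and 18.4 FPKM in ACSS2i and 21.4 and 21.1 FPKM in DMSO. For Dnmt3a to Dnmt3b the ratio was 4.66 and 5.77 in ACSS2i and 6.34 and 5.16 in DMSO, with overlap.

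**Figure D4:**
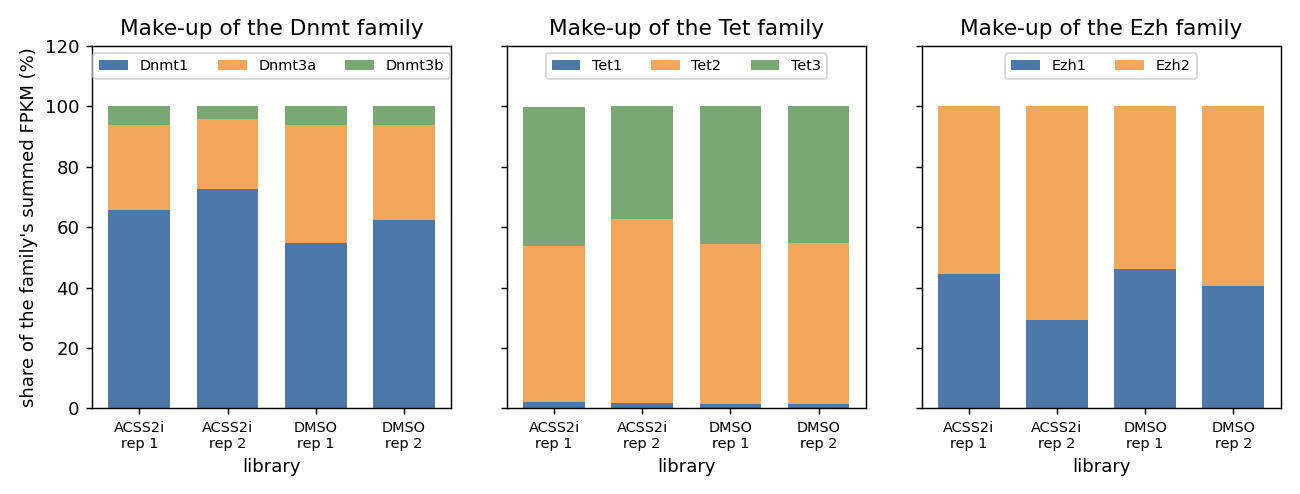
Share of each gene in the summed FPKM of its family (%) in each library, for the DNA methyltransferases, the TET oxidases and the EZH methyltransferases. Dnmt1 takes 65.7% and 72.5% in ACSS2i and 54.6% and 62.5% in DMSO, and the Ezh2 share of ACSS2i replicate 2 (70.9%) stands above those of the other 3 libraries.

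Partners of these enzymes were described by lists of genes, chosen with earlier results of these data known. Counts beside the share of all genes are therefore descriptions and no test. Of 118 distinct genes tested over all lists, 0 passed limma's test over all genes, where 0.0261% of all genes tested passed. An unadjusted p under 0.05 was found for 44, where 6.96% of all genes tested had one, and 39 of the 44 were of the replication and mitosis lists. The counts of signs below stand beside 5996 positive and 5490 negative among all 11486 genes tested. All 9 tested partners of maintenance methylation had positive log2 fold changes, with a median of 0.32, which was 0.70 without ACSS2i replicate 1 and 0.49 without DMSO replicate 2. Of the 9, 5 were higher in both ACSS2i libraries, where 19.0% of all genes tested were. Dppa3, also listed, was below the filter, at 0.01 and 0.01 FPKM in ACSS2i and 0.13 and 0.445 FPKM in DMSO. Hells, the chromatin remodeller that opens DNA to methylation, averaged 20.3 ± 1.64 FPKM in ACSS2i and 6.43 ± 0.885 FPKM in DMSO (SD, n = 2 each; log2 fold change 1.52 ± 0.23, SE). Its activator Cdca7 was at 6.54 and 5.88 FPKM in ACSS2i and 1.84 and 5.30 FPKM in DMSO. Lig1, the ligase of replication, whose methylated tail UHRF1 binds, was at 15.0 and 19.4 FPKM in ACSS2i and 5.80 and 5.54 FPKM in DMSO. The sliding clamp Pcna was at 67.3 and 115 FPKM in ACSS2i and 39.8 and 51.9 FPKM in DMSO. Lig1 and Pcna are also in the replication list. Usp7, which stabilises DNMT1, and the paralog Uhrf2 overlapped between groups, with log2 fold changes of 0.043 and 0.16.

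Of 3 tested partners of de novo methylation 1 was positive, Morc1, at 11.1 and 15.5 FPKM in ACSS2i and 6.36 and 9.85 FPKM in DMSO. The H3K36 methyltransferases Setd2 and Whsc1 had log2 fold changes of -0.042 and -0.013. Among 11 tested genes of demethylation and base excision 9 were positive, with a median of 0.13, which was 0.36 without ACSS2i replicate 1, 0.33 without DMSO replicate 2 and 0.079 with equal sums. Neil3, a DNA glycosylase of dividing cells, was at 2.70 and 4.48 FPKM in ACSS2i and 0.232 and 0.266 FPKM in DMSO (log2 fold change 1.85 ± 0.34, SE). The glycosylase Mbd4 and the repair genes Apex1 and Xrcc1 had 0.42, 0.35 and 0.47. Of 7 readers of methylated CpG 6 were negative, with a median of -0.13, which was -0.25 without ACSS2i replicate 1 or without DMSO replicate 1. Mbd2 was at 64.1 and 53.1 FPKM in ACSS2i and 68.9 and 81.4 FPKM in DMSO, and Zbtb4, Zbtb38 and Mbd1 had log2 fold changes of -0.73, -0.25 and 0.14.

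The partners of the EZH enzymes had mixed signs. Of 9 tested PRC2 genes 5 were positive and 4 negative, with a median of 0.00, which ran from -0.28 without ACSS2i replicate 2 to 0.19 without ACSS2i replicate 1. The histone-binding subunit Rbbp4 was at 36.5 and 64.0 FPKM in ACSS2i and 38.8 and 39.4 FPKM in DMSO. Phf1, an accessory subunit, was at 4.51 and 5.37 FPKM in ACSS2i and 9.38 and 5.71 FPKM in DMSO, and Lcor at 4.16 and 4.36 FPKM in ACSS2i and 8.43 and 7.20 FPKM in DMSO. Aebp2 overlapped, with a log2 fold change of 0.26. Of 19 genes of PRC1, the Polycomb complex that binds the PRC2 mark, 15 were negative, with a median of -0.17, which was 0.0057 without ACSS2i replicate 2 and -0.089 without DMSO replicate 1. Of the 19, 6 were lower in both ACSS2i libraries and 1 was higher, where 18.3% and 19.0% of all genes tested were. An unadjusted p under 0.05 (limma) was found for 0 of them. The PRC1 reader Cbx7 was at 41.3 and 49.0 FPKM in ACSS2i and 71.7 and 58.3 FPKM in DMSO. Rybp, Phc2 and Pcgf5 had log2 fold changes of -0.53, -0.27 and 0.79. The demethylases that remove the PRC2 mark, Kdm6b and Kdm6a, had -0.37 and -0.075.

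**Figure D5:**
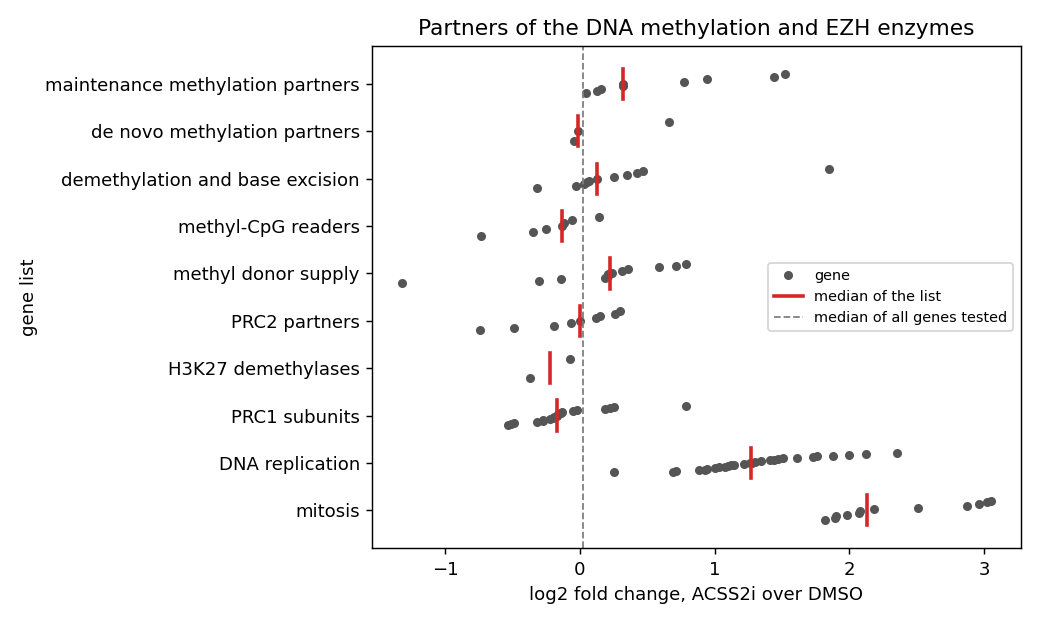
Log2 fold change of ACSS2i over DMSO on the log2(FPKM + 1) scale for each tested gene of the lists (grey points), with the median of each list in red and the median of all genes tested (0.02) dashed. The replication (median 1.27) and mitosis (2.13) lists lie to the right of the others, and the PRC2 list is centred at 0.00.

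The genes most like the mean profile of Dnmt1, Uhrf1 and Ezh2 over the 4 libraries were Spidr, Cast, Uqcrh, Vcl and Ccdc109b. Likeness was the Euclidean distance between profiles of log2(FPKM + 1) centred on the 4 libraries, among 8655 genes whose mean reached 5 FPKM. The 5 distances ran from 0.102 to 0.151, against 0.318 for Uhrf1, 0.295 for Dnmt1 and 0.190 for Ezh2. Over 4 libraries this is a description. Spidr was at 4.70 and 8.76 FPKM in ACSS2i and 2.32 and 4.33 FPKM in DMSO, and Uqcrh at 177 and 284 FPKM in ACSS2i and 111 and 169 FPKM in DMSO. None of the 5 belonged to the replication or mitosis lists, which hold only 28 and 12 genes beside 8655 candidates. Some listed genes, Mcm5 and Plk1 among them, had means under 5 FPKM and were not candidates. The absence of listed genes among 5 is therefore no result about the profile.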

How the data were processed

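Polyadenylated RNA of 4 CAD cell libraries, 2 ACSS2i and 2 DMSO, was prepared with ScriptSeq v2 and sequenced in a single pooled lane, per the labels' protocols. Cufflinks 2.2.1, Cuffdiff, STAR 2.3.0, bcl2fastq 02.14.01.07 and the build mm10 are named, with no order, in the submitters' processing notes. The annotation, the scaling between libraries and the meaning of the table's name, which calls the values adjusted, are not given in the sources used here. Deposited values were taken as FPKM, since Cufflinks is named and no unit is in the header. The lowest value is a floor of 0.01 FPKM. A gene without a number in 1 library was left out, which left 24340.

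Tests were run on log2(FPKM + 1) for genes whose mean reached 1 FPKM, with limma 3.58.1 (R 4.3.3; mean-variance trend, two-sided, Benjamini-Hochberg over all genes tested, threshold 0.05). This scale understates differences of low genes. The same steps were run on simulated data, 20 times, with 200 of 11486 genes changed. Of genes changed by log2 1, 1.65% passed, and of those changed by log2 3, 92.8%. On average 5.1 unchanged genes passed per run. Differences as small as those estimated for the members would thus seldom pass, and a member that did not pass may still differ. Depth was read from values of at most 0.5 FPKM, as the most common ratio between libraries, and scaled with lengths of 3075 single-transcript genes of GENCODE M21. Nominal reads are FPKM times the length of the principal transcript times this depth. Beside counting error they carry the error of the estimated depth and of the assumed length, and they ignore isoforms. Exact permutation tests used scipy 1.17.1. Promoter windows are from RefSeq, GRCm38.p6, the assembly of mm10.

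The members and lists were chosen with earlier results of these data known. The named genes were all members, up to 4 genes of each list with the smallest unadjusted p, and the 5 most like profiles. Acss2 and Mki67 were named as well. Usp7, Uhrf2 and Dppa3 were added after their values were seen. Alternatives were other pseudocounts, filters and scalings, limma without the trend, each library left out and a replicate block.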

Additional observations from a re-analysis of the deposited data

How the results depend on the processing

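Under none of the 13 alternative settings did a member pass limma's test over all genes, and the smallest adjusted p was 0.227, for Ezh2 without ACSS2i replicate 1. All tested members kept the sign of their log2 fold change, except Dnmt3b, which ran from -0.19 to 0.072 with single libraries left out and was 0.072 without DMSO replicate 2. The median of the replication-coupled genes exceeded that of the others by 0.69 to 1.22 throughout. Of the ratios, Dnmt1 to Dnmt3a differed by 0.40 to 0.89 with single libraries left out, Ezh2 to Ezh1 differed by -0.058 (without ACSS2i replicate 2) to 0.88 and Dnmt3a to Dnmt3b by -0.29 to 0.00078 (without ACSS2i replicate 1). The number of genes that passed, 3 of 11486, was 6 with a pseudocount of 0.1, 0 with a pseudocount of 5, 0 without a filter (1342 at an unadjusted p under 0.05, against 795 with a pseudocount of 5), 6 with equal sums and 13 to 26 when single libraries were left out (13 and 16 without ACSS2i replicates 1 and 2, 26 and 21 without DMSO replicates 1 and 2). With the replicate number as a block 8 genes passed, 0 members among them and 1 listed gene, Top2a. Same-numbered libraries did not deviate together over all genes tested (r = -0.0165), which does not describe every subset of them. For Dnmt1, Uhrf1 and Ezh2 replicate 2 was the higher of each pair. With the block the unadjusted p was 0.0119 for Uhrf1 and 0.0249 for Ezh2 (limma), with adjusted p of 0.535 and 0.67. The cause of these differences between settings was not tested. DMSO replicate 2, at a nominal 3.32 M reads, limits the low members most, with 16 reads for Tet1.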

Other observations

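Genes known to be kept silent by these enzymes gave few values. Of 39 Hox genes, which PRC2 silences in many cell types, 31 were at the floor of 0.01 FPKM in all 4 libraries, and the 5 tested were all of the HoxC cluster. Hoxc10 was at 33.9 and 29.3 FPKM in ACSS2i and 26.2 and 20.4 FPKM in DMSO. Hoxc6 was at 6.70 and 12.0 FPKM in ACSS2i and 6.35 and 5.50 FPKM in DMSO, and Hoxc4 at 2.78 and 2.86 FPKM in ACSS2i and 5.31 and 3.98 FPKM in DMSO. Hoxc8 overlapped between groups, with a log2 fold change of -0.15. Of 17 germline genes that DNA methylation silences in mouse somatic cells, 7 were at the floor in all libraries and 3 were tested. Asz1 stood apart from the rest by its level, 127 and 165 FPKM in ACSS2i and 138 and 131 FPKM in DMSO. Sycp1 and Taf7l had log2 fold changes of 0.14 and -0.15, with overlap. None of these genes passed limma's test over all genes, where 0.0261% of all genes tested passed. Of the 8 tested, 0 had an unadjusted p under 0.05, where 6.96% of all genes tested had one. For 8 genes, 0 is near that share.

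Genes that supply S-adenosylmethionine, the methyl donor of DNMT and EZH enzymes, were all tested, 9 of 12 with positive log2 fold changes and a median of 0.23. Mat2a, which makes the donor, was at 194 and 113 FPKM in ACSS2i and 274 and 503 FPKM in DMSO (log2 fold change -1.32 ± 0.42, SE; unadjusted p = 0.0199, adjusted p = 0.609, limma). Ahcy, which clears the product S-adenosylhomocysteine, was at 10.5 and 9.19 FPKM in ACSS2i and 4.38 and 6.29 FPKM in DMSO (log2 fold change 0.79 ± 0.26, SE; unadjusted p = 0.0231, adjusted p = 0.618, limma). The folate enzyme Mthfd1 was at 58.5 and 54.1 FPKM in ACSS2i and 32.3 and 42.7 FPKM in DMSO, and methionine synthase, Mtr, overlapped at 7.08 and 3.20 FPKM in ACSS2i and 1.96 and 3.31 FPKM in DMSO.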
